A study of Homo sapiens with 10 samples.

Results

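The WM983A melanoma line and the resistant line derived from it were compared, 1 library each, as 2 of the 10 libraries of the study. The members were every gene with at least 20 counts in either of these libraries, 16915 of the 57955 genes in the files, and each was described by its level in both and by the ratio of the levels. WM983A is a BRAF-mutant line from a primary melanoma, and the sensitive library came from the original line. The resistant line, WM983A_E+B_RES, had been selected with encorafenib and binimetinib, inhibitors of BRAF and of MEK, at doses raised from 1 nM to 200 nM within 3 to 5 months, and was kept in 200 nM of the combination. The other libraries came from the lines WM983B, WM278, WM1617 and WM902B, each sensitive and made resistant in the same way. WM983B derives from a metastasis of the patient who gave WM983A, and WM278 and WM1617 are another such pair. The sensitive library held 14876553 counts and the resistant one 13693922. Levels are CPM, the count of a gene scaled to the total of its library, 3 counts were taken as the smallest detectable level (0.202 and 0.219 CPM), and log2 ratios are of the resistant to the sensitive level after 1 CPM was added to both. A gene was counted as higher or lower when this ratio reached 2-fold. Neither state had a replicate, so no difference was tested and the spread between cultures of one state is unknown. Selection with the drugs, drug present in the medium and months of separate culture cannot be told apart. The paper states that sensitive and resistant cells were compared at matched passage numbers. Fold changes are ratios of CPM with exact 95% (Clopper-Pearson) intervals, which cover counting error only.

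The label was checked against markers before the results. The sensitive library carried the genes that define melanocytes, with SOX10 at 349 CPM, MITF at 393 CPM and PMEL at 1438 CPM. In the resistant library SOX10 stood at 6.15 CPM, MITF at 32.6 CPM and PMEL at 30.2 CPM. The 25 pigment and melanosome genes summed to 5352 CPM in the sensitive and 246 CPM in the resistant library, a remainder of 4.60%, whereas the 29 epithelial adhesion genes among the members were mostly higher in the resistant one. Its profile thus went against the label of a melanocytic melanoma line. Low melanocyte genes were not unique to it, since SOX10 stood at 13.6 CPM in resistant WM983B and at 0.655 CPM in resistant WM902B. Across 19395 genes the log2 levels of resistant WM983A correlated with those of its own sensitive line at r = 0.833. With those of the 8 libraries of the other lines they correlated at r = 0.814 to 0.852, of which 4 were above 0.833. The highest of these values was that with sensitive WM902B. In that library many genes of resistant WM983A had a low level, whose part in the correlation was not tested. Sensitive WM983A correlated at r = 0.975 with sensitive WM983B, the line of the same patient, and at 0.893 to 0.935 with the remaining sensitive lines. These are correlations across genes, which are not independent replicates, in libraries that share genes with like levels in every cell. Sequence variants were not analysed here, so whether both WM983A libraries hold the same line was not tested, and fewer cells of a type cannot be told apart from less RNA per cell in bulk libraries. Beside the epithelial genes, markers of 4 other cell types were summed in the resistant library. The levels of 7 endothelial and 9 leukocyte markers were 1.08 and 16.2 CPM, with 5 and 8 of them at 3 counts or fewer, those of 9 fibroblast markers 8.96 CPM, and those of 9 keratinocyte markers 82.7 CPM, of which KRT10 made up 81.8 CPM.

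Melanoma cells that carry mutant BRAF depend on signalling from RAF through MEK to ERK, and ERK in turn switches on its own inhibitors, among them the DUSP phosphatases and the Sprouty proteins. The melanocyte programme is run by SOX10 and MITF, which act on the genes of pigment synthesis. Melanoma cells are known to lose this programme under BRAF inhibition, often with a rise in EGFR and other receptor tyrosine kinases. NRF2 is the transcription factor that switches on enzymes against oxidants and reactive carbonyls, including aldo-keto reductases, and the supply of glutathione and NADPH.

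Of the 16915 genes, 2731 were at least 2-fold higher in resistant WM983A (16.1%) and 3163 at least 2-fold lower (18.7%). These shares of all genes are the background for the counts of list members given below. The median log2 ratio was -0.03 and the standard deviation 1.51. A change of 32-fold or more was measured for 127 genes upward (0.751%) and 105 downward (0.621%). The other lines spread less, the standard deviation being 1.04 for WM983B, 1.16 for WM902B, 0.82 for WM278 and 0.46 for WM1617. The scatter of gene levels shows the width of the change on both sides of the diagonal.

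**Figure D1:**
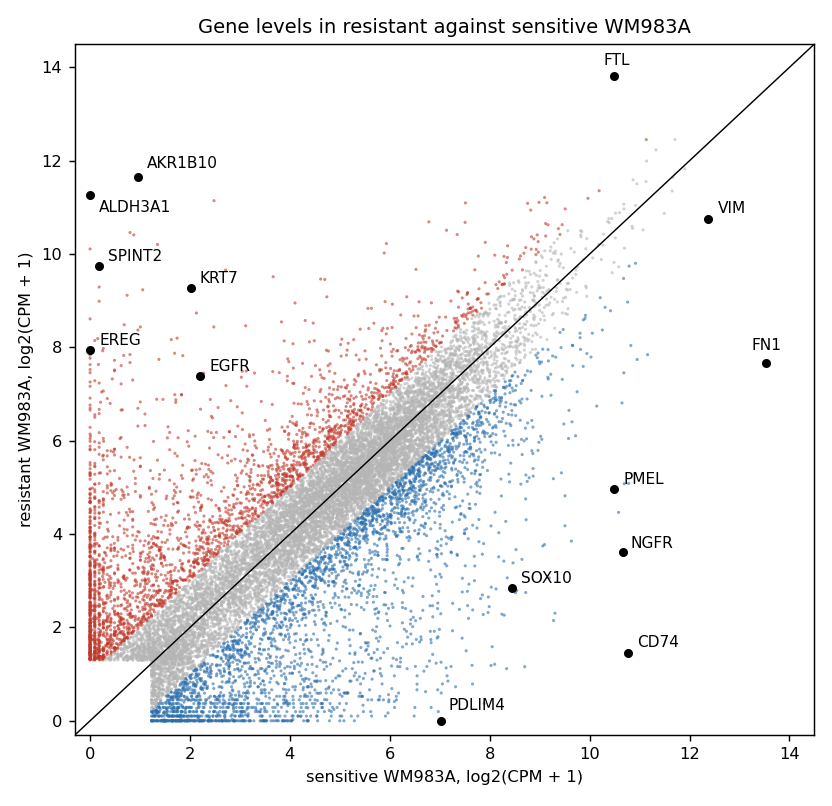
Level of each gene in resistant (y axis) against sensitive (x axis) WM983A, both as log2(CPM + 1), with genes at least 2-fold higher in red, at least 2-fold lower in blue, the others in grey and the labelled genes in black; the line marks equal levels. ALDH3A1, AKR1B10 and SPINT2 lie far above the line near 0 on the x axis, and FN1, CD74 and PDLIM4 lie far below it.

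The genes ALDH3A1, KRT7, CD74 and PDLIM4 mark the comparison. ALDH3A1 (ENSG00000108602, chr17:19737984-19748943 in GRCh38), which oxidises aromatic and fatty aldehydes, had 0 counts in the sensitive library and 33531 in the resistant one (2449 CPM). It was thus at least 12142-fold higher against a floor of 3 counts, and it had the highest log2 ratio of all genes (11.26). KRT7 (ENSG00000135480, chr12:52232520-52252186), a keratin of simple glandular epithelia, was at 3.03 CPM in the sensitive and 617 CPM in the resistant library, 203-fold higher (152 to 280). CD74 (ENSG00000019582, chr5:150401637-150412969), the invariant chain of MHC class II, was at 1747 CPM in the sensitive library and 1.75 CPM in the resistant one, 998-fold lower (670 to 1556), which gave the lowest log2 ratio of all (-9.31). PDLIM4 (ENSG00000131435, chr5:132257696-132273454), a PDZ and LIM domain protein of the actin cytoskeleton, had 1933 counts (130 CPM) in the sensitive library and 0 in the resistant one, at least 593-fold lower.

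In the other 8 libraries ALDH3A1 ranged from 0 to 9.14 CPM, the highest in sensitive WM902B, and KRT7 from 1.22 to 23.3 CPM, so that neither reached its level in resistant WM983A. CD74 varied widely among them, from 3.01 CPM in sensitive WM1617 to 1442 CPM in resistant WM278, and its level in resistant WM983A was below all of these. PDLIM4 was at 21.8 CPM in sensitive WM983B and 0.641 CPM in the resistant line made from it, a log2 ratio of -3.79, and was near the floor in WM1617 and WM902B in both states. The plot of selected genes in all libraries places resistant WM983A apart for the genes of high level and beside other resistant lines for SOX10 and PMEL.

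**Figure D2:**
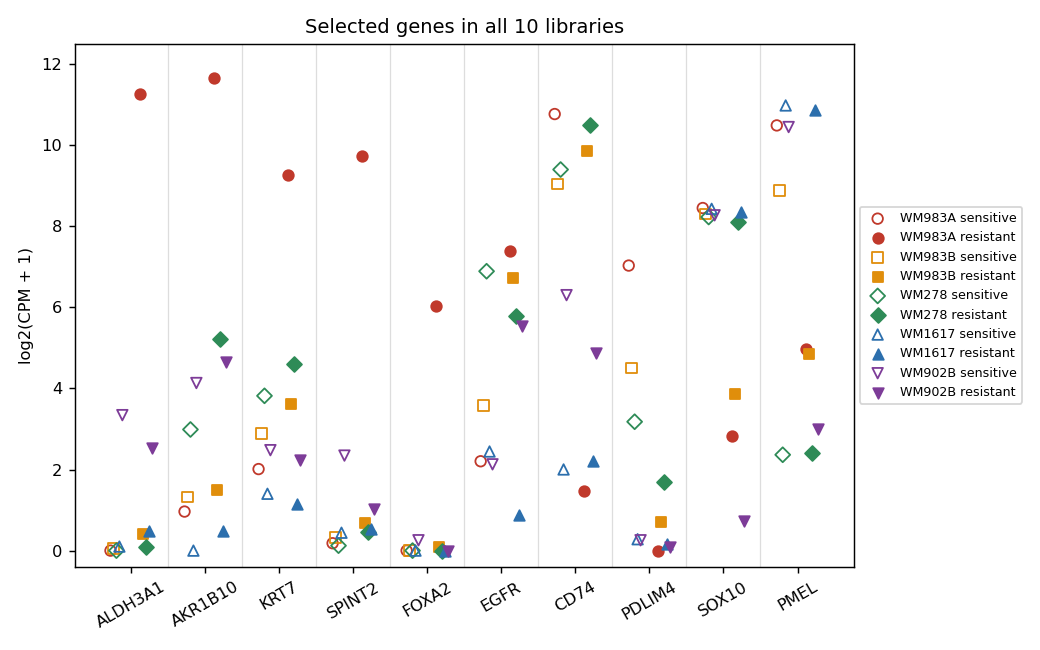
Levels of 10 genes as log2(CPM + 1) in each of the 10 libraries, with open symbols for sensitive and filled symbols for resistant libraries and 1 symbol shape and colour per line. Resistant WM983A is highest for ALDH3A1, AKR1B10, KRT7, SPINT2, FOXA2 and EGFR, and lowest for CD74.

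NRF2 targets were mostly higher in the resistant library. Of the 34 NRF2 target genes 33 were measured at 20 counts, 23 of them at least 2-fold higher (16.1% of all genes) and 1 lower, with a median log2 ratio of 2.12 against -0.03 for all genes. AKR1B10 (ENSG00000198074, chr7:134527567-134541412), an aldo-keto reductase of retinal and other aldehydes, was at 0.950 CPM in the sensitive library and 3225 CPM in the resistant one, 3395-fold higher (2042 to 6269). AKR1C1 was at 1.55 and 1179 CPM, AKR1C2 at 0.832 and 1359 CPM, and AKR1C3 at 0.134 and 626 CPM. These reductases of steroids and ketones lie side by side on chromosome 10 and are near-identical in sequence, so how reads were shared among the 3 genes is uncertain, as it is for AKR1B10 and its copy AKR1B15. The glutathione supply moved with them. GCLC, the catalytic subunit of the enzyme that starts glutathione synthesis, was at 25.7 and 541 CPM, 21.1-fold higher (19.0 to 23.4), and its modifier subunit GCLM had a log2 ratio of 1.90. GPX2, a glutathione peroxidase of gut epithelium, had 2.33 counts in the sensitive library and 38.7 CPM in the resistant one, a ratio of 247 (79.3 to 2383). Makers of NADPH were also higher, with PGD at 162 and 1367 CPM and the malic enzyme ME1 at 4.30 and 117 CPM. Export pumps followed, with ABCC3 at 3.37 and 425 CPM (126-fold higher, 95.9 to 171) and ABCC2 reaching 701 CPM with a log2 ratio of 4.76. The ferritin light chain FTL gained more CPM than any other protein-coding gene, from 1433 to 14388 CPM, although its many processed pseudogenes make the assignment of its reads uncertain.

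Members that stayed within 2-fold included SLC7A11, the cystine transporter, at 310 and 318 CPM, the haem oxygenase HMOX1 at 72.8 and 119 CPM, and NFE2L2, the gene of NRF2 itself, at 172 and 108 CPM. CBR3 was the member that was lower, at 39.9 and 18.2 CPM. WM902B had a median log2 ratio of 2.43 over its measured NRF2 targets, WM278 0.64, WM983B -0.02 and WM1617 -0.06. SLC7A11 had a log2 ratio of 4.31 in WM902B and 0.04 in WM983A. The promoters of GPX2 and ME1 are shown because both hold the core of the antioxidant response element, TGACNNNGC, to which NRF2 binds. Each is the stretch of 250 bases before the start of the gene, from RefSeq (GRCh38.p14, minus strand, chr14:64942746-64942995 and chr6:83431052-83431301), written 5′ to 3′ with the match on either strand in capitals.
GPX2: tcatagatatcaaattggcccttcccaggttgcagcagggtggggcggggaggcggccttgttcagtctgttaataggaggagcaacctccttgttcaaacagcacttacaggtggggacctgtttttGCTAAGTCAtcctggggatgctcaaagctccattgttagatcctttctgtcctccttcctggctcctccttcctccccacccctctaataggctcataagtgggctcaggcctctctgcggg
ME1: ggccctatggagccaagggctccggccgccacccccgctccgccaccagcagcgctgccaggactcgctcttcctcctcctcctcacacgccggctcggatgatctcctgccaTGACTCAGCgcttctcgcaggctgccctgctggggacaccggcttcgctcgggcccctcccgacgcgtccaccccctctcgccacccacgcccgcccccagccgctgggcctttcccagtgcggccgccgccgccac
The motif, which can overlap the AP-1 motif TGANTCA, was in 6 of the 23 NRF2 target promoters found in RefSeq (26.1%) and in 3013 of 27305 promoters of the same length. A match is only a description of these letters, and most members, with a rise or without one, had none in this window.

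Aldehyde dehydrogenases were split. Among 16 of 19 measured, 5 were at least 2-fold higher (16.1% of all genes) and 4 lower (18.7%), with 0.29 as the median log2 ratio. Besides ALDH3A1, ALDH2, the mitochondrial enzyme that clears acetaldehyde, had 0 counts in the sensitive library and 103 CPM in the resistant one, at least 511-fold higher, and ALDH3A2 was at 46.2 and 456 CPM. ALDH1A3, which makes retinoic acid, went the opposite way from 1928 to 38.2 CPM, 50.5-fold lower (46.3 to 55.1). Of 9 measured genes of the aryl hydrocarbon receptor and its targets 5 were higher and 1 lower. CYP1B1, an oxidising P450 enzyme, was at 0.403 and 182 CPM, 451-fold higher (207 to 1231), while CYP1A1, the classic target of the receptor, was at 35.7 and 0.803 CPM. The receptor, AHR, was itself at 80.2 and 46.0 CPM, and its core motif GCGTG was in 4 of 8 promoters of the list (50.0%) against 31.9% of all promoters. Glutathione transferases were not higher as a group: 1 of 14 measured was higher, 5 were lower, with -0.49 as the median log2 ratio. The member that was higher, the membrane-bound MGST1, had 2 counts in the sensitive library and 507 CPM in the resistant one, a ratio of 3774 (1044 to 31170).

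The melanocyte programme was low in the resistant library. Of 10 transcription factors of the melanocyte lineage 9 were at least 2-fold lower (18.7% of all genes) and 0 higher, with a median log2 ratio of -3.90. SOX10 (ENSG00000100146, chr22:37970686-37987422) was 56.8-fold lower (45.9 to 71.5) and MITF, the master regulator of pigment cells, 12.1-fold lower. PAX3, which acts upstream of MITF, had 566 counts in the sensitive library and 13 in the resistant one. The remaining factors included SNAI2 at 115 and 3.68 CPM and ZEB2 at 125 and 5.84 CPM. TFAP2A was the factor that stayed within 2-fold, at 87.8 and 56.6 CPM. Pigment and melanosome genes followed, with 22 of 25 lower, 1 higher and a median log2 ratio of -4.23. TYR, the enzyme that starts melanin synthesis, was at 141 and 0.949 CPM, 148-fold lower (86.4 to 279), and DCT, a later enzyme of the pathway, at 584 and 7.34 CPM. Glial genes held in the same list were low as well, with S100B at 619 and 3.43 CPM. The exception was PRAME, a cancer-testis antigen of melanomas and other tumours, at 0.202 and 25.8 CPM.

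The remainder of each gene in the resistant library was not one fixed share of its sensitive level. PMEL kept 2.10%, SOX10 1.76%, TYR 0.675% and CD74 0.100%, whereas PDLIM4 had no count. Pigment genes were also lower in WM983B (16 of 24 lower, against 8.47% of all its genes) and WM902B (21 of 25, against 9.55%), whereas 2 of 18 were lower in WM278 (5.39%) and 0 of 23 in WM1617 (2.44%). The list was already low in sensitive WM278, where it summed to 685 CPM against 5352 CPM in sensitive WM983A. PMEL was at 4.15 CPM and TYR at 0.530 CPM there, although S100B was at 87.2 CPM. A further fall of the low members could hardly be measured in WM278. GPR143 went from 70.4 to 1.24 CPM in WM983A and from 15.2 to 38.5 CPM in WM983B, so single members did not move alike. MLANA went from 36.5 to 4.62 CPM in WM983A. It had a log2 ratio of 1.45 in WM983B, but from a low level of 0.929 CPM to 4.27 CPM. The promoters of TYR and TYRP1, a pigment enzyme at 31.1 and 0.0730 CPM, are shown because each holds 2 copies of CATGTG, a sequence bound by MITF. They are again the 250 bases before the start, from RefSeq (GRCh38.p14, plus strand, chr11:89177625-89177874 and chr9:12693135-12693384), with matches on either strand in capitals, the second strand reading as CACATG.
TYR: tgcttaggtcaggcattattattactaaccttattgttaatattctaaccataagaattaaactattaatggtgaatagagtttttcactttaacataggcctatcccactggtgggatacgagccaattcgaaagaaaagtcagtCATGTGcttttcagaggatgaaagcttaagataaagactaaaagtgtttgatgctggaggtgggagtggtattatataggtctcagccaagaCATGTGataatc
TYRP1: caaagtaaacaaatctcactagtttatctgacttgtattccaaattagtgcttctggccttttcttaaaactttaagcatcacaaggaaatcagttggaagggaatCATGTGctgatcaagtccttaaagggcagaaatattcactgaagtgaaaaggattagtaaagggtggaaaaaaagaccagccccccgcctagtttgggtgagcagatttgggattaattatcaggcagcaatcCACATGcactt
This motif was in 9 of the 18 promoters of pigment genes found in RefSeq (50.0%) and in 9.54% of all promoters, whereas the related CACGTG was in 0 of the 18 and in 6.49% of all.

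**Figure D3:**
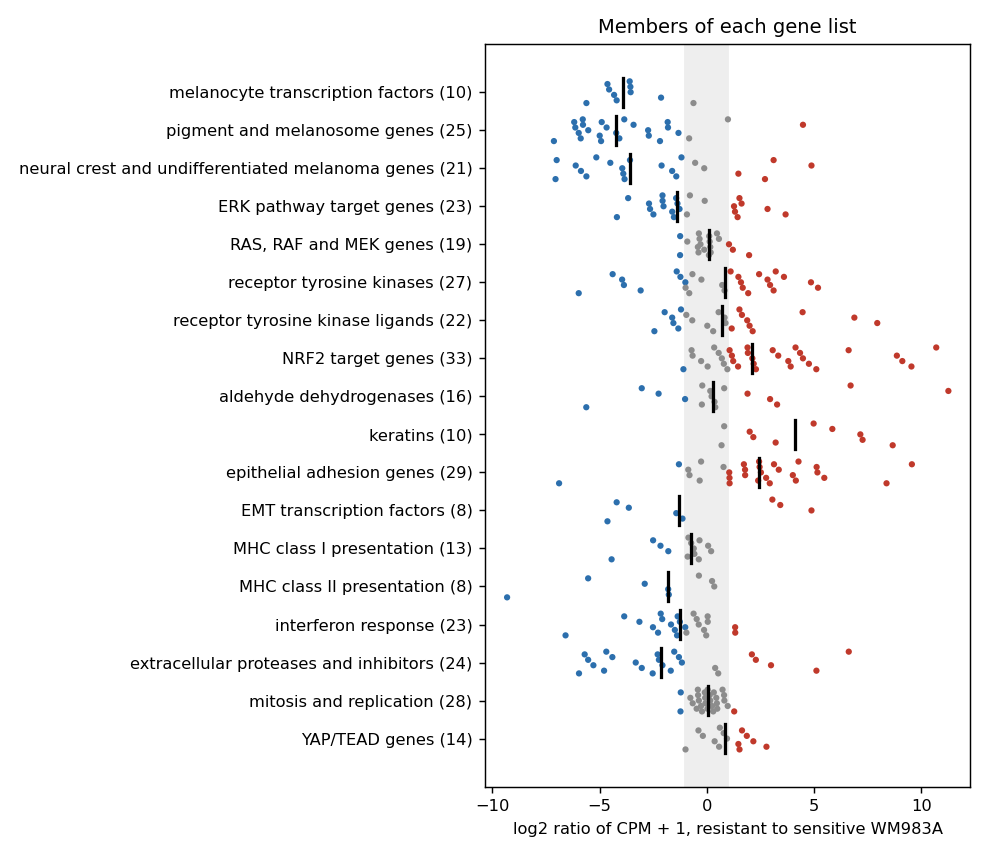
Log2 ratio of CPM + 1, resistant to sensitive WM983A (x axis), for each measured member of 18 gene lists (number in brackets), in red where at least 2-fold higher and in blue where at least 2-fold lower, with a black bar at the median of the list and a grey band for ratios under 2-fold. The pigment genes lie to the left with 1 gene above 2-fold, the keratins and NRF2 targets lie mostly to the right, and the mitosis genes stay in or near the band.

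Genes of the neural crest-like and undifferentiated states of melanoma, which often rise where pigment genes fall, were mostly low as well. Of 21 measured 15 were at least 2-fold lower and 4 higher, with a median log2 ratio of -3.58. NGFR, the nerve growth factor receptor of the neural crest state, went from 1628 to 11.3 CPM, 145-fold lower (124 to 171), and the intermediate filament gene NES from 632 to 3.94 CPM. WNT5A, a ligand of the invasive state, was at 113 and 2.19 CPM. AXL, the receptor tyrosine kinase that marks the undifferentiated state, was higher, at 220 and 610 CPM, 2.78-fold (2.67 to 2.89). The median of this list was -0.02 in WM983B and 0.44 in WM902B, the other lines in which most measured pigment genes were at least 2-fold lower. In WM983B 5 of 19 measured members were lower (8.47% of all its genes) and 6 higher (15.7%). In WM902B 6 of 20 were lower (9.55% of all its genes) and 9 higher (13.9%). NGFR was low there too, with log2 ratios of -3.79 in WM983B and -7.32 in WM902B, whereas WNT5A had 2.79 and 2.88.

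Matrix and mesenchymal genes accounted for the largest losses of CPM. FN1, fibronectin, went from 11897 to 203 CPM, 58.7-fold lower (56.5 to 61.0), and its log2 ratio was -2.32 for WM902B but 0.44 for WM983B, 0.82 for WM278 and 1.51 for WM1617. VIM, vimentin, went from 5320 to 1732 CPM, and SPARC, a secreted collagen-binding protein, from 1654 to 32.8 CPM. Of 24 measured extracellular proteases and inhibitors 17 were lower and 5 higher (median log2 ratio -2.15). Among those lower were the membrane protease MMP14 at 727 and 27.2 CPM, the plasminogen activator PLAT at 302 and 3.87 CPM, and the inhibitor TIMP3 at 1757 and 32.9 CPM. PLAU, the urokinase gene, was the opposite of PLAT, with 2.34 counts and 112 CPM, a ratio of 716 (231 to 6909). Collagens were mixed, 9 of 20 lower (18.7% of all genes) and 5 higher (16.1%). COL18A1 was at 91.0 and 815 CPM and COL9A3 at 423 and 18.8 CPM. MMP2, the gelatinase, was at 40.5 and 53.2 CPM.

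Epithelial genes were high in the resistant library. Of 10 keratins measured among 23, 8 were at least 2-fold higher and 0 lower (median log2 ratio 4.09). KRT8 and KRT18, the partner keratins of simple epithelia, were at 11.7 and 730 CPM and at 48.5 and 456 CPM. KRT81, a hair keratin, was at 4.58 and 2260 CPM, although KRT81, KRT83 and KRT86 are close copies whose reads cannot be told apart with certainty. Of the keratins of the stratified epidermis, KRT5, KRT14 and KRT1 were below 20 counts in both libraries. KRT10 was measured and stayed within 2-fold, with a log2 ratio of 0.81. Of 29 adhesion genes measured among 37, 22 were higher and 2 lower (median log2 ratio 2.44). SPINT2 (ENSG00000167642, chr19:38244035-38292615), a membrane inhibitor of serine proteases, had 2 counts in the sensitive library and 853 CPM in the resistant one, a ratio of 6347 (1757 to 52416). ITGB4, the integrin of hemidesmosomes, was at 0.671 and 554 CPM, 825-fold higher (448 to 1719), with its ligand chain LAMA3 at 2.56 and 126 CPM. CDH1, E-cadherin, had 10 counts and 781 counts, 84.8-fold higher (45.9 to 178), and the desmosome gene DSP at 4.91 and 104 CPM. ITGA6, the partner of ITGB4, was lower, at 315 and 127 CPM, as was ITGB8, at 273 and 1.31 CPM.

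The regulators of the epithelial state did not move as 1 group. ELF3 was at 0.403 and 55.4 CPM and KLF5 at 8.87 and 58.3 CPM, but the splicing factor ESRP1 was lower, at 27.4 and 0.511 CPM, and GRHL2, OVOL1 and TP63 were under 20 counts in both libraries. Of the 8 transcription factors of epithelial-mesenchymal transition 5 were lower and 3 higher. ZEB1 had 0 counts in the sensitive and 28.4 CPM in the resistant library, at least 141-fold higher, while ZEB2 and SNAI2 were lower. Transcription factors of internal organs were present in the resistant library, with 6 of 10 measured higher and 2 lower. FOXA2 (ENSG00000125798, chr20:22580998-22585455), a factor of endoderm, had 0 counts in the sensitive library and 64.9 CPM in the resistant one, at least 322-fold higher. It had at most 3 counts in all 9 other libraries. Other factors of this kind, HNF4A, GATA4, CDX2 and NKX2-1, were below 20 counts in both WM983A libraries.

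Receptors and ligands that signal to RAS were exchanged. Of 27 measured receptor tyrosine kinases among 44, 13 were at least 2-fold higher and 8 lower, with a median log2 ratio of 0.82. EGFR was at 3.61 and 166 CPM, 46.0-fold higher (35.0 to 61.1), MET, the receptor of hepatocyte growth factor, at 25.5 and 245 CPM, and EPHA2 at 46.8 and 338 CPM. ERBB3, the neuregulin receptor of the melanocyte lineage, was lower, at 421 and 5.72 CPM. The log2 ratio of EGFR was 3.15 in WM983B and 3.42 in WM902B, but -1.10 in WM278 and -1.57 in WM1617. That of MET was 0.96 in WM983B and negative in the remaining lines, at -1.16 for WM278, -1.96 for WM1617 and -1.89 for WM902B. Among the ligands 9 of 22 measured were higher and 6 lower. Both EREG and AREG, ligands of EGFR that are neighbours on chromosome 4, were high in resistant WM983A. EREG had 0 counts and 245 CPM, at least 1216-fold higher, and AREG was at 0.739 and 203 CPM, 275-fold higher (153 to 551). FGF2 was at 5.59 and 144 CPM and NRG1 at 29.0 and 118 CPM, while HBEGF, a further EGFR ligand, was lower, at 23.6 and 7.04 CPM. AREG had log2 ratios of 0.76, -2.41, -0.13 and -1.33 in WM983B, WM278, WM1617 and WM902B.

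Targets of ERK were lower more often than higher, with 13 of 23 measured lower, 7 higher and a median log2 ratio of -1.37. The feedback phosphatase DUSP6 was at 189 and 13.9 CPM, 13.6-fold lower (11.7 to 15.8), SPRY2 at 87.6 and 20.2 CPM, SPRED1 at 210 and 32.7 CPM and the ETS factor ETV5 at 162 and 37.9 CPM. Among the members that were higher were CCND1, cyclin D1, at 187 and 576 CPM, MYC at 102 and 276 CPM and FOS at 12.8 and 175 CPM. Feedback inhibitors and growth-related genes were found on both sides. DUSP5 and SPRY1 were higher, at 18.9 and 46.8 CPM and at 3.23 and 9.49 CPM, and the AP-1 subunit FOSL1 and the cytokine LIF were lower, at 402 and 155 CPM and at 426 and 64.8 CPM. Medians of this list were also below -1 for WM278 (-1.18) and WM902B (-1.78), and near 0 for WM983B (-0.16) and WM1617 (0.08). Of 19 genes of RAS, RAF, MEK and ERK 3 were higher, a share near that of all genes (16.1%), and 2 were lower (18.7% of all genes). BRAF was at 40.9 and 16.6 CPM and MAP3K8, the kinase COT, at 1.06 and 7.06 CPM. MAP3K8 had log2 ratios of 1.97 in WM983A, 1.93 in WM983B, 2.93 in WM278 and 2.90 in WM902B, and -0.71 in WM1617.

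**Figure D4:**
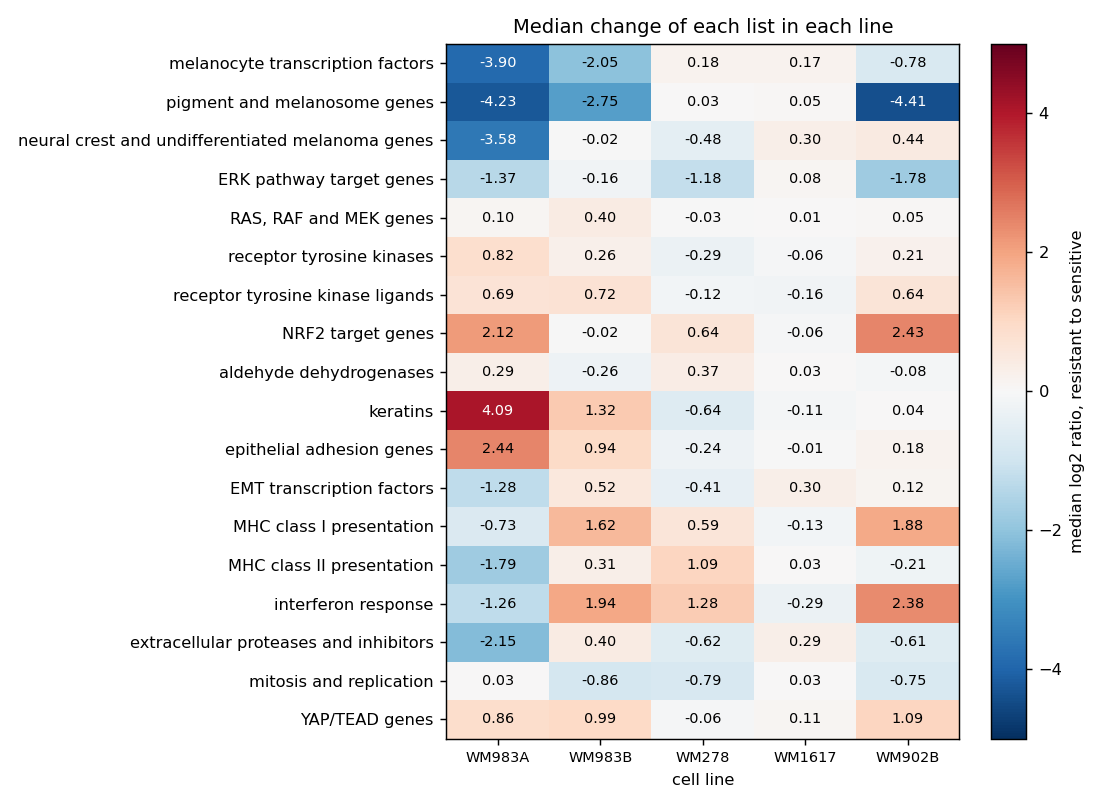
Median log2 ratio, resistant to sensitive, of the measured members of 18 gene lists (rows) in each of the 5 lines (columns), with 1 pair of libraries per line. WM983A is the column in which the MHC class II median (-1.79) is lowest and the keratin median (4.09) highest.

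Antigen presentation and interferon genes were low. CD74 headed the MHC class II list, in which 5 of 8 measured genes among 16 were at least 2-fold lower and 0 higher (median log2 ratio -1.79). CIITA, the master activator of class II, was at 66.0 and 8.01 CPM, and the protease CTSS, which trims the invariant chain, at 62.2 and 0.364 CPM, 171-fold lower (72.7 to 526). The subunits of the RFX complex that binds class II promoters stayed within 2-fold, RFX5 at 82.4 and 63.5 CPM. HLA-DRB1 and HLA-DPB1 were low even in the sensitive library (2.49 and 2.42 CPM) and had no count in the resistant one, and reads of HLA genes depend on how alleles and copies were assigned. In the class I list 4 of 13 measured were lower (18.7% of all genes) and 0 higher (16.1%). B2M was at 596 and 171 CPM and HLA-B at 86.9 and 3.05 CPM. Of 23 measured interferon response genes 13 were lower and 2 higher (median log2 ratio -1.26). BST2, tetherin, was at 158 and 0.657 CPM, 241-fold lower (127 to 527), and IFI6 at 130 and 13.8 CPM, whereas the RNA sensor DDX58 was higher, at 10.3 and 27.1 CPM. In the other lines the same list was at least 2-fold higher in 21 of 25 measured genes in WM983B (against 15.7% of all its genes), 16 of 25 in WM278 (10.4%) and 22 of 25 in WM902B (13.9%), and in 0 of 21 in WM1617 (1.18%). The difference between the lines was not tested. The promoter of CD74 is shown because it holds ATTGG, the Y box bound by NF-Y, in reverse as CCAAT. It covers the 250 bases before the start from RefSeq (GRCh38.p14, minus strand, chr5:150412911-150413160), with the match in capitals.
CD74: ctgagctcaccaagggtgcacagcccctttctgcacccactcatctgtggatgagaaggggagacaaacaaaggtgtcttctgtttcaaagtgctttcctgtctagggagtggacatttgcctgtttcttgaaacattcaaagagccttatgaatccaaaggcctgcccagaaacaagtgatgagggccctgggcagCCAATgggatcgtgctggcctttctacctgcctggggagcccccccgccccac
This motif was in 10 of 13 class II list promoters found in RefSeq (76.9%) and in 33.0% of all promoters.

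Proliferation genes were level. Of 28 mitosis and replication genes 1 was at least 2-fold higher, TOP2A at 454 and 1100 CPM, and 2 were lower, E2F1 at 221 and 94.6 CPM and RRM2 at 965 and 411 CPM. The median log2 ratio was 0.03, and 0.03 in WM1617, whereas it was -0.86 in WM983B, -0.79 in WM278 and -0.75 in WM902B. Among 18 measured genes of the G1 phase 6 were lower (18.7% of all genes) and 4 higher (16.1%). CDKN2A, which encodes an inhibitor of CDK4 and CDK6, was at 181 and 8.99 CPM, 20.2-fold lower (16.8 to 24.4), and its neighbours on chromosome 9, CDKN2B and MTAP, were at 14.4 and 1.24 CPM and at 47.4 and 5.93 CPM. The general CDK inhibitor CDKN1A was higher, at 26.6 and 78.1 CPM. Of 14 genes of YAP and TEAD 6 were higher and 0 lower, with CYR61 at 55.3 and 252 CPM. For the genes of the 17 proteins that differed on the study's own protein array, a list chosen on these cell lines, 4 were higher, among them SPP1, osteopontin, at 21.1 and 366 CPM, and 8 lower.

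Many genes were well measured in 1 library of the pair and at or near 0 counts in the other. At least 100 counts in resistant WM983A and at most 3 in sensitive WM983A were counted for 237 of 56992 genes (0.416%), and the reverse for 141 (0.247%). The same counts were 57 and 14 for WM983B, 73 and 56 for WM902B, 32 and 11 for WM278, and 0 and 11 for WM1617. Of the 237 genes 62 had at most 3 counts in all 5 sensitive libraries and 38 in all 9 other libraries. The 38 included FOXA2, the kidney injury receptor HAVCR1 with 339 counts, the mucin MUC5AC with 229 counts, IL18 with 151 counts and the neural factor SOX21 with 197 counts. Without the sensitive WM902B library, in which many of the 237 genes had a low level, the counts were 89 and 50, an alternative added after the data were seen. At least 3 neighbouring protein-coding genes were at or near 0 counts in the same library in 14 runs. Not all members are separate genes, since some overlap and may share reads. Examples are UGT1A9 with UGT1A7 and UGT1A6, FXYD2 with FXYD6-FXYD2, and SLCO1B3 with RP11-545J16.1. Whether scattered genes would give as many runs was not tested, and runs in the other lines are not given. On chromosome 19 a run held SPINT2, PPP1R14A (1 and 2122 counts) and CTB-102L5.4 (1.82 and 2706 counts), of which both overlap SPINT2 and may share its reads. A further run on chromosome 19 held the fatty acid hydroxylases CYP4F3, CYP4F12 and CYP4F11 with 346, 98.4 and 367 counts in the resistant library and at most 2 in the sensitive one. On chromosome X, CLDN2, RBM41 and NUP62CL had 2508, 316 and 194 counts against at most 1. The run with the opposite direction was formed by the zinc finger genes ZNF610, ZNF880 and ZNF528 on chromosome 19, with 45.8, 214 and 202 counts in the sensitive and at most 1 in the resistant library.

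Whole chromosomes differed as well. The median log2 ratio of protein-coding genes ranged from -0.87 on chromosome 22, -0.85 on chromosome 21 and -0.79 on chromosome 20 to 0.45 on chromosome 19 and 0.48 on chromosome 9. The standard deviation of these medians over 23 chromosomes was 0.414, compared with 0.235 for WM983B, 0.148 for WM1617, 0.123 for WM278 and 0.0637 for WM902B. On chromosomes 21 and 19 WM983B had medians of -0.71 and 0.44, close to those of WM983A. The WM983A quartiles on chromosomes 21 and 22 lay below 0 throughout, so the shift was spread over most of their genes. Copy number was not measured, and its part in these medians was not tested.

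**Figure D5:**
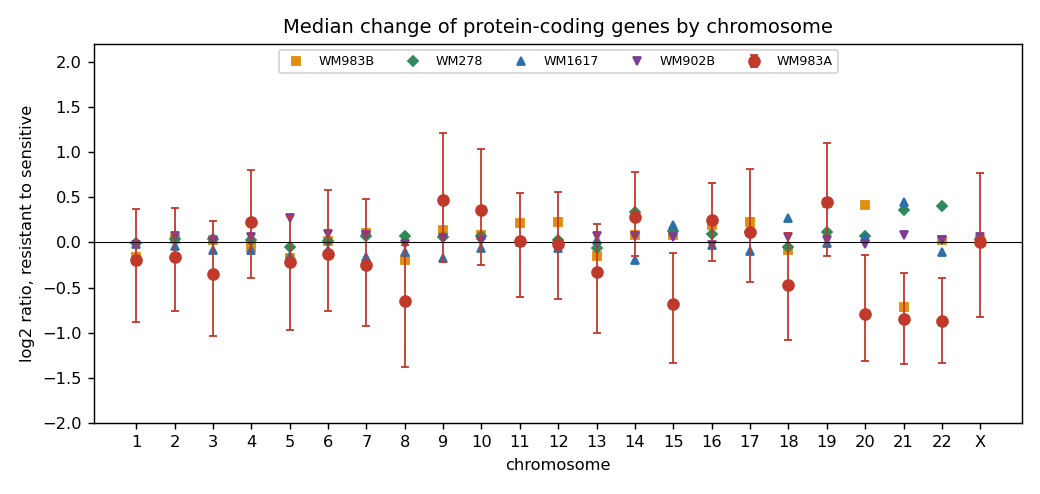
Median log2 ratio, resistant to sensitive, of protein-coding genes on each chromosome (x axis) in the 5 lines; the error bars on the WM983A points are the quartiles over genes. The WM983A medians on chromosomes 15, 20, 21 and 22 lie lowest and those on chromosomes 9 and 19 highest.

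Compared with the 4 other lines, WM983A stood apart for many genes. Of 16774 genes with a value in all lines, 1296 (7.73%) had a log2 ratio at least 2-fold above that of each other line and 1615 (9.63%) at least 2-fold below. The corresponding counts were 521 and 117 for WM983B, 519 and 316 for WM902B, 429 and 252 for WM278, and 206 and 402 for WM1617. Farthest above stood ALDH3A1, IGFBP4, a binding protein of insulin-like growth factors, at 0.739 and 1407 CPM, and UCHL1, a ubiquitin hydrolase of neurons, at 0 counts and 1102 CPM. Farthest below stood CD74, QPRT, an enzyme of NAD synthesis, at 61.4 and 0.123 CPM, BST2, and TF, transferrin, at 124 and 0.146 CPM. Of the 2679 genes higher in WM983A with a value in every line, 27.5% were also higher in WM983B and 22.8% in WM902B, where 12.8% and 11.2% of all these genes were. They formed 34.4% and 32.4% of the genes higher in those lines. Of the 3148 lower genes 24.3% were lower in WM983B and 21.7% in WM902B, where 8.08% and 8.55% of all these genes were, or 56.5% and 47.7% of the genes lower there. A part of them went the opposite way, with 11.6% higher in WM983B and 12.6% in WM902B. In WM278 more of the 3148 genes were higher (14.8%) than lower (9.53%), and in WM1617 2.67% were higher and 2.35% lower.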

How the data were processed

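mRNA selected with oligo-dT was sequenced with single-end reads of 75 cycles, 1 library per line and state. HISAT2 was used by the authors for alignment to GRCh38, and StrandNGS for their statistics; the counting tool, versions, gene annotation, strand setting and the handling of shared reads are not given in the sources used here. The raw values deposited are expected counts, reads per gene that include fractions, which can move reads between near-identical genes. A normalized column holds the authors' log2 ratios between libraries of a line and was not used. In sensitive WM983B 455 values turned into dates were treated as missing, and its total leaves them out.

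Counts were divided by the library total to give CPM, 1 CPM was added to both levels, and ratios were taken for genes with at least 20 counts in either library. Folds against 0 counts were bounded with 3 counts. No test was run, since each state had 1 library. The ratio step was tested on simulated data. Ratios were computed in Python 3.11.15 (scipy 1.17.1, pandas 2.3.3, numpy 2.4.6) and plotted with matplotlib 3.10.9. TMM from edgeR 4.0.16 and size factors from DESeq2 1.42.0 (R 4.3.3) served only as other scalings. Positions are from GENCODE 44, matched by Ensembl ID for 56911 genes, and promoters from RefSeq, the first entry for each symbol.

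Named were the genes ALDH3A1, PDLIM4, CD74 and KRT7, the 15 highest and 15 lowest ratios, the 10 largest gains and losses of CPM, the 10 genes farthest above and below the other lines, leading and defining members of 34 gene lists, and runs of at least 3 neighbouring genes. Genes named as present in 1 library alone, and the level of these genes in other libraries, were chosen after their values were seen. The comparison, the members and the lists were chosen with earlier results of these data known. Genes of the Y chromosome, XIST and some members of the lists are not reported here by name.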

Additional observations from a re-analysis of the deposited data

Results flagged for a closer look

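Of the genes named, 4 were lower in WM983A and higher in each of the 4 other lines beyond the counting interval, a difference between lines that was not tested. All 4 had been named for lying farthest below the ratios of the other lines, so opposite directions were favoured by their choice. BST2 had a log2 ratio of -6.59 in WM983A but ranged from 0.11 for WM1617 to 5.59 for WM902B. QPRT, an enzyme of NAD synthesis, had -5.80 in WM983A and 0.93 to 3.51 in the others. CYP27A1, a sterol hydroxylase of bile acid synthesis, had -5.44 in WM983A and 0.31 to 2.55 in the others. CPQ, a secreted carboxypeptidase, had -4.86 in WM983A and 0.43 to 1.96 in the others.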

How the results depend on the processing

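With 5 CPM added in place of 1, 1670 genes were at least 2-fold higher and 2066 lower, and 804 were 2-fold above and 982 2-fold below each other line. Under the other 7 settings (0.25 CPM added, TMM, DESeq2 size factors, a minimum of 10 or 100 counts, no minimum, rounded counts) all 4 counts stayed within 1.5 times the reported ones. Leaving out WM983B, WM278, WM1617 or WM902B in turn gave 1433 to 1630 genes above and 1737 to 2082 below the remaining lines. Of 432 recomputed log2 ratios of 54 named genes 0 changed sign and 40 moved beyond the counting interval. Part of this was fixed in advance. Settings of the minimum count cannot change the ratio of a gene. Genes with 0 counts in 1 library have no closed interval, so none of them could be counted as moved. ALDH3A1, for example, went from 11.26 to 8.94 with 5 CPM added. The medians of 2 lists, mitosis and replication (-0.02 to 0.05) and G1 genes (0.00 to 0.06), lay on both sides of 0. Other medians kept their sign but moved by over 1.5 times with the scaling or the CPM added: MHC class II ranged from -3.21 to -0.58, epithelial adhesion from 0.96 to 3.21, organ lineage factors from 0.98 to 4.31, undifferentiated genes from -3.63 to -2.31, ERK targets from -1.45 to -0.88 and aryl hydrocarbon receptor genes from 0.74 to 1.19. So did collagens (-0.77 to -0.27), cytokines and chemokines (0.16 to 0.47), receptor tyrosine kinase ligands (0.40 to 0.78) and epithelial regulators (-0.88 to -0.18). The same held for RAS, RAF and MEK genes (0.05 to 0.12), fibroblast markers (-2.98 to -0.76) and leukocyte markers (-2.16 to -0.82). No paired analysis was possible because each state of WM983A had 1 library and no test was run. Counts near 3 limit folds of genes absent from 1 library.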

Other observations

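Lipid, survival and chemokine genes changed in both directions. PPARG, the factor of fat cell differentiation, had 0 counts in sensitive WM983A and 37.1 CPM in resistant WM983A, at least 184-fold higher, and of 22 measured lipid genes 6 were higher (16.1% of all genes) and 7 lower. LPL, lipoprotein lipase, was at 88.7 and 0.0730 CPM, and PPARGC1A, the coactivator of mitochondrial genes known from pigmented melanoma, at 31.9 and 0.0730 CPM. In the BCL-2 family 4 of 15 were higher (16.1% of all genes) and 4 lower (18.7%). The survival gene BCL2L1 was at 56.5 and 281 CPM, 4.98-fold higher (4.62 to 5.38), whereas BCL2A1, a survival gene of the melanocyte lineage, was at 50.5 and 1.75 CPM. Of 20 measured cytokines and chemokines 8 were higher and 8 lower. CXCL5 had 0 counts and 390 CPM, but CXCL8, which acts on the same receptor, was at 353 and 9.43 CPM. In the PDZ and LIM family of PDLIM4, PDLIM1 was at 6.71 and 105 CPM and the family had 2 members higher and 3 lower of 8. Of 13 housekeeping genes 1 was higher, GAPDH at 2245 and 5597 CPM, and 2 lower, among them GUSB at 217 and 47.2 CPM. Among 1199 processed pseudogenes 183 were at least 2-fold higher, a share near that of all genes (16.1%), and 50 lower (18.7% of all genes).

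A low level of the genes of resistant WM983A was also measured in the sensitive WM902B library. Over 32 genes with at least 1000 counts in resistant and at most 3 in sensitive WM983A, the level in sensitive WM902B had a median of 0.480% of that in resistant WM983A, with quartiles of 0.442% and 0.635%, and 26 of the 32 genes lay between 0.2% and 1%. In the 7 other libraries 3 to 8 of these genes lay in that range. ALDH3A1, for example, was at 9.14 CPM in sensitive WM902B and 4.81 CPM in resistant WM902B. AKR1B10, which had 14.1 counts in sensitive WM983A and is not among the 32, was at 16.6 CPM in sensitive WM902B and 3225 CPM in resistant WM983A. Log2 ratios of such genes in WM902B rest on that level, and its source was not tested.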
